A study of Caenorhabditis elegans with 2 samples.

Results

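The DRM complex is the C. elegans form of the DREAM complex of animals, in which an Rb-family protein and an E2F-DP pair join the MuvB core to repress genes of the cell cycle and, in somatic cells, genes of the germline. Its worm genes were found largely as class B synMuv genes, which act redundantly with class A genes to keep epidermal cells from taking a vulval fate. The 8 genes described here are lin-35, the Rb-family pocket protein; efl-1 and dpl-1, the E2F and DP partners; and lin-9, lin-37, lin-52, lin-53 and lin-54, the MuvB core, in which LIN-54 contacts DNA and LIN-53 is a WD40 protein of the RbAp46/48 type. They were chosen by name, out of 19985 protein-coding genes, and all 8 were found in the annotation by symbol. For each gene, peak summits were counted in a promoter window that reached 1000 bp before and 200 bp past the gene's start in the WBcel235 annotation.

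The data are peak lists from ChIP-seq of W03F9.2, a protein tagged with eGFP, in whole worms at the L4 to young adult stage, with males and females pooled per the labels. The strain, OP215, carries the unc-119(ed3) allele and the integrated transgene wgIs215. The data are 1 group of 2 biological replicates, with no untagged group among the lists used here, so members were set beside all protein-coding genes and the replicates beside each other. The lists hold 30000 entries for each replicate and for the pool of both, and the optimal set is the 2409 entries of highest signal in the pooled list, with signals of 48.5 and above. Signal is the authors' value in the units of their caller, and read depth is unknown, so no counting interval can be given. Antibody labels name W03F9.2 and the description names the eGFP fusion, and which of them was precipitated is not settled. In whole worms, occupancy in fewer cells and lower occupancy per cell cannot be told apart.

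In the optimal set, 6 of the 8 genes had a summit in the promoter window, against 11.7% of all protein-coding genes: lin-54, lin-53, lin-9, efl-1, lin-35 and dpl-1. The other two, lin-37 and lin-52, had entries of the pooled list there, but at signals of 18.5 and 19.0, under the lowest signal of the optimal set. Any pooled-list summit in the window was found for all 8 members, against 40.1% of protein-coding genes, and of genes with such a summit 29.1% reached the optimal set. Since the genes were proposed with results of these lists known, the counts are a description and no test was made of them. Among the 1204 peaks of highest signal, 5 members kept a promoter summit, against 7.11% of genes, and dpl-1 did not. The member just inside the optimal set was dpl-1, at 51.7, and the next member down was lin-52, at 0.39 times the lowest signal of the set.

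The DNA under 3 of the summits is shown as examples. These summits lie between genes, and their windows carry letters searched for below. The same holds for lin-53 and lin-35, which are not shown. Each line reads 5′ to 3′ on the strand of the gene and comes from the 300 bases around the summit, with 119 bases of annotated exon left out at lin-54. Capitals mark matches, on either strand, to an E2F-type core, to the cell cycle genes homology region (CHR) or to a GA repeat. The core was searched as TTCCCGC, and also as its variant TTGGCGC, then as TTCGCGC and lastly as TTGCCGC. The CHR was searched as TTTGAA and also as the variant TTCGAA, while the repeat was the run GAGAGA. The sequences are from the RefSeq copy of WBcel235, at chrIII:8904163-8904462 on the minus strand for lin-9, chrIV:13240652-13240832 on the plus strand for lin-54 and chrV:16965691-16965990 on the minus strand for efl-1.
lin-9: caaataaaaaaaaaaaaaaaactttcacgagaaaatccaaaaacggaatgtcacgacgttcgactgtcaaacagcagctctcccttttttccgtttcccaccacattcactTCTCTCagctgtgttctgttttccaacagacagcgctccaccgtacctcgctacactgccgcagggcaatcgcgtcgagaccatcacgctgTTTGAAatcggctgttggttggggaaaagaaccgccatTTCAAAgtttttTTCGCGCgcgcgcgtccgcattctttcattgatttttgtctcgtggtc
lin-54: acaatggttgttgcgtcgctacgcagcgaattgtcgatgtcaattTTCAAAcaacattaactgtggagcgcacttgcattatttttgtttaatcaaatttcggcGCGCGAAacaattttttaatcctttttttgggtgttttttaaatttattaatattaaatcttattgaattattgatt
efl-1: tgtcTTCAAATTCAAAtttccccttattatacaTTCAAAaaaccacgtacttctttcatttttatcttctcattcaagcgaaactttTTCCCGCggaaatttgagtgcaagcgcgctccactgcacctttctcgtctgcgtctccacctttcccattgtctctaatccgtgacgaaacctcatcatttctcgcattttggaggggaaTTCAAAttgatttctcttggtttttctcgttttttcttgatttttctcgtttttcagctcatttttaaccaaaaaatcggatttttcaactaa

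By pooled signal the 6 members of the optimal set lay in 3 ranges. Highest came a trio from the MuvB core (lin-54, lin-53, lin-9), with pooled signals of 263, 231 and 221. By strongest promoter signal they ranked 52, 60 and 74 among all genes, and 0.37% of protein-coding genes had a promoter signal at least that of lin-9. The E2F gene efl-1 and the Rb-family gene lin-35 followed at 124 and 112, ranks 437 and 586, and 2.94% of genes reached the signal of lin-35. The DP gene dpl-1 stood alone near the edge of the optimal set, at rank 2176, and its signal was 1.07 times the lowest of the set. Against the median of 80.2 over genes with an optimal-set promoter summit, 5 of the 6 members were higher and dpl-1 was lower. Below the optimal set, lin-52 and lin-37, also of the MuvB core, were the lowest of the 8 genes at 19.0 and 18.5.

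**Figure D1:**
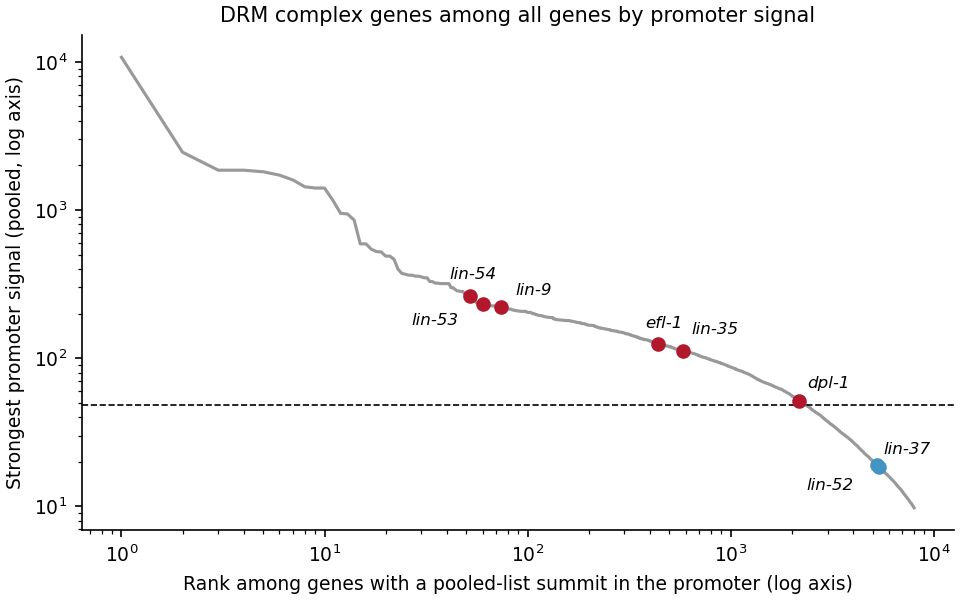
Strongest promoter signal in the pooled list (y axis, log) against rank (x axis, log) for the 8011 genes with a pooled-list summit in the promoter window, in grey. Red points are members in the optimal set, blue points members below it, and the dashed line is the lowest optimal-set signal of 48.5; the 3 strongest members lie close together at ranks 52 to 74.

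LIN-54 is the subunit of the core that reads CHR elements in DNA. The lin-54 gene (WBGene00003037, chromosome IV, 13241044 to 13243401, plus strand) had the strongest entry, at 13240579 to 13240784, and replicate 1 gave it a signal of 126 and replicate 2 one of 138. It ranked 37 and 72 in these lists, and the summits of the replicates were 2 bp apart. The summit lay between genes, at -361 bp from the lin-54 start and at -32 from that of rpl-12, a large-subunit ribosomal protein gene on the other strand. The nearer start is therefore that of rpl-12. A second optimal-set entry, with a signal of 62.6, lay at -1481, beyond the far end of rpl-12 and outside the window.

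The lin-53 gene (WBGene00003036, chromosome I, 9618196 to 9619760, minus strand) encodes a histone-binding subunit that other chromatin complexes also hold. Its entry, at 9619875 to 9620085, had a signal of 84.9 in replicate 1, against 151 in replicate 2, and ranked 78 and 57. The summit stood almost midway between divergent starts, at -241 from lin-53 and at -226 from nra-2, whose product is associated with nicotinic receptors. Replicate summits were 11 bp apart. No other pooled-list entry lay within 2000 bp upstream of lin-53 or inside the gene.

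The lin-9 gene (WBGene00002998, chromosome III, 8900237 to 8904131, minus strand) encodes a conserved core subunit and had its entry to itself. The entry at 8904237 to 8904394 had 100.1 in replicate 1 and 125 in replicate 2, at ranks 57 and 97. Its summit lay at -181, in a gap of 1483 bp to the divergent unc-32, a vacuolar ATPase subunit gene. A weaker entry with a signal of 34.2 lay between the genes at -1247, below the optimal set. These 3 entries were the narrow ones among the members, at 206 bp for lin-54, 211 bp for lin-53 and 158 bp for lin-9, while the others were 350 bp, as were 87.5% of the optimal set; of its 100 strongest entries, 87 were narrower than 350 bp.

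**Figure D2:**
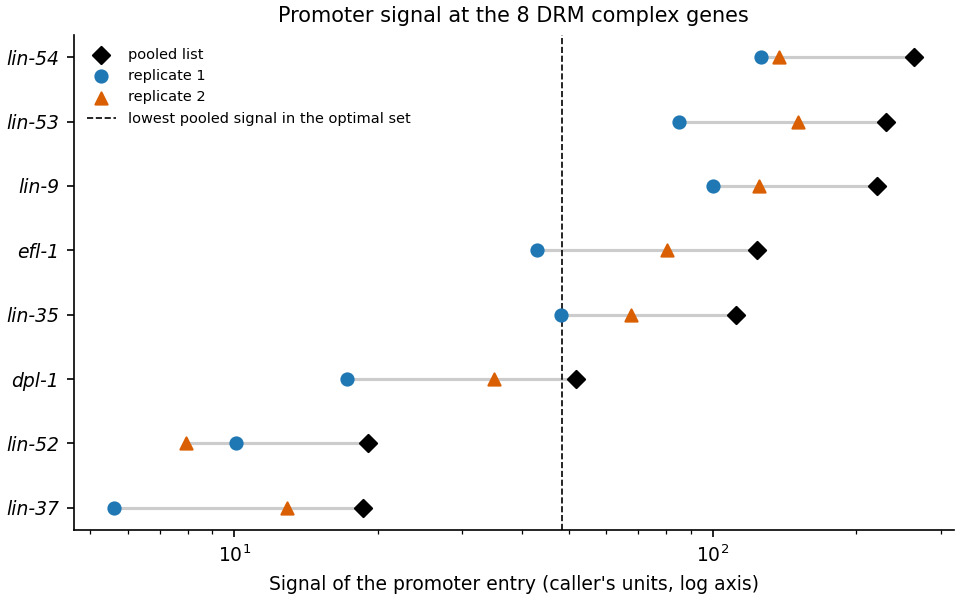
Signal of the strongest pooled promoter entry of each gene and of the replicate entries that overlap it most (x axis, caller's units, log) in the pooled list (diamonds), replicate 1 (circles) and replicate 2 (triangles), with genes ordered by pooled signal. In each replicate the 3 strongest genes lie above the other 5 genes, and lin-37 and lin-52 lie lowest; the dashed line, 48.5, applies to the pooled list.

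EFL-1 is the E2F partner of the complex, and efl-1 (WBGene00001161, chromosome V, 16958590 to 16965675, minus strand) had an entry at 16965665 to 16966014. Its signal was 43.0 in replicate 1 and 80.4 in replicate 2, at ranks 532 and 305. The replicate summits were 47 bp apart, the widest of the 6. The pooled summit lay between genes at -165, the closest among the 6 to the member's own start. It fell into the window of the divergent gene fbxa-90 as well, at -974. The 3 pooled-list entries inside efl-1 reached at most 22.0. Replicate 2 alone also listed an entry of 30.9 inside the gene, 6031 bp downstream of the start.

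LIN-35 is the pocket protein through which the complex resembles Rb repressors. The gene lin-35 (WBGene00003020, chromosome I, 5807709 to 5815637, plus strand) had a signal of 48.1 in replicate 1, against 67.5 in replicate 2, at an entry from 5807351 to 5807700, with ranks of 403 and 480. The summit lay in the 417 bp between lin-35 and the divergent vps-51, a vesicle tethering gene, at -183 from lin-35 and somewhat farther from vps-51. It was also the member with most entries in its body: 11 pooled-list entries, with signals from 9.78 to 52.4. One of them, in an intron 2863 bp downstream of the start, belonged to the optimal set at rank 2115. The gene C32F10.4 lies within lin-35 on the other strand, and that intronic summit is in the promoter window of C32F10.4, at -570.

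DPL-1 is the DP partner that pairs with EFL-1. The gene dpl-1 (WBGene00001061, chromosome II, 9169910 to 9172565, plus strand) reached 17.2 in replicate 1 and 34.9 in replicate 2, at ranks 3877 and 2022. Of the 6 members in the optimal set, dpl-1 was the one that fell outside the 2409 strongest entries of a replicate list. Its summit, at -272, was no other gene's, but it lay in an exon of T23G7.2, which spans dpl-1 on the other strand. The other 5 summits of the optimal set lay between genes.

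The core genes lin-37 and lin-52 had the weakest windows. At lin-37 (WBGene00003022, chromosome III, 7070890 to 7072552, minus strand) the pooled entry lay at -71, and the entries that overlap it most had 5.60 in replicate 1, with the summit at -192, and 12.9 in replicate 2, with the summit at -72. They ranked 28428 and 10582, and their summits were 120 bp apart, the widest gap of the 8 genes. At lin-52 (WBGene00003035, chromosome III, 9824083 to 9824750, minus strand) the entry at 58 bp downstream of the start had 10.1 in replicate 1 and 7.93 in replicate 2, at ranks 11262 and 21925. A fainter pooled entry lay at -225, with a signal of 15.3. The replicate lists differed over lin-52: the strongest entry in its window was at -224 in replicate 1, with 13.0, and at -990 in replicate 2, with 21.7. The pooled entry that overlaps the latter had a signal of 27.5, and its summit at -1006 was just outside the window. The lowest signal listed is 5.35 in replicate 1, close to the lin-37 value there, and 5.98 in replicate 2. The median promoter signal over genes whose strongest entry is below the optimal set was 19.4, close to both genes. The nearest optimal-set summits lay 3724 bp downstream of the lin-37 start and at -3046 from the lin-52 start.

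**Figure D3:**
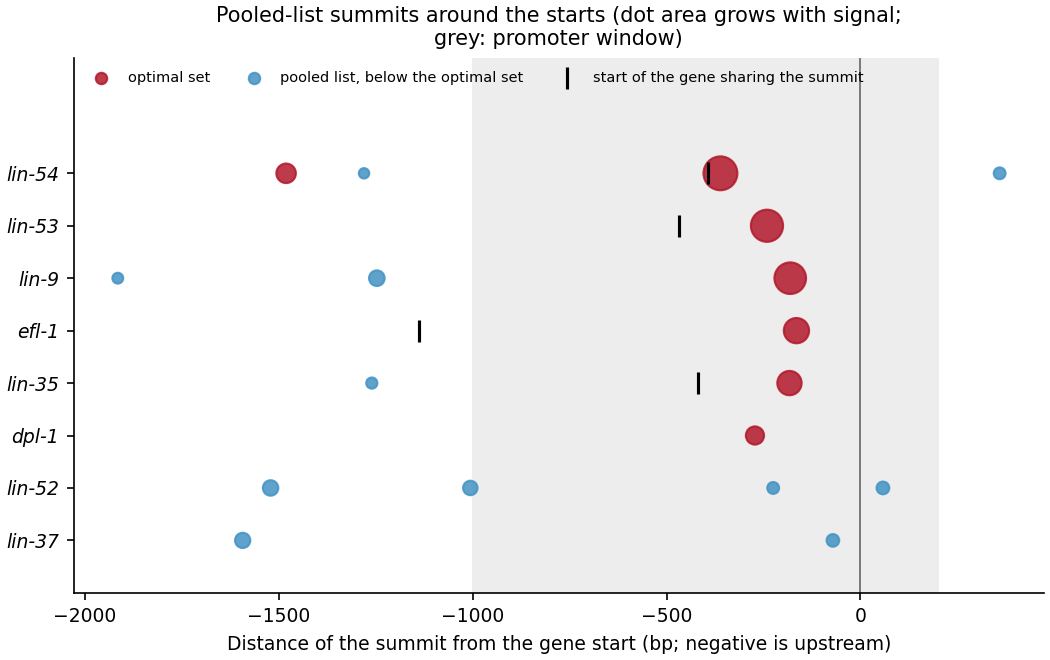
Summits of the pooled list around the start of each gene (x axis, distance in bp, negative upstream), in red for the optimal set and blue below it, with dot area growing with signal and the promoter window in grey. The red summits in the window lie between -361 and -165, and black ticks mark the starts of the genes that share a member's summit.

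The genes lin-37 and lin-52 also differ from the other 6 in their surroundings, a comparison chosen after the values were seen. The next gene upstream of lin-37 is ZK418.5, on the same strand with 60 bp between them, and that of lin-52 is ZK632.9, on the same strand at 126 bp. The strongest pooled-list entries in the windows of these neighbours had signals of 32.1 at ZK418.5 and 33.2 at ZK632.9, also below the optimal set. Upstream of lin-35, lin-53 and lin-54, the next gene is on the other strand at 417, 466 and 392 bp. Of the genes whose next upstream gene is on the same strand within 500 bp, 8.76% had an optimal-set summit in the window, while of those with a gene on the other strand within 500 bp it was 36.5%. Because a summit counted for every gene whose window held it, a summit between divergent starts could enter the second share for both genes. Whether neighbouring genes bear on the members' signals was not tested.

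All 6 members of the optimal set were higher in replicate 2 than in replicate 1, as were most matched peaks of that set. The log2 difference, replicate 2 minus replicate 1, was 0.13 at lin-54, 0.32 at lin-9, 0.49 at lin-35, 0.83 at lin-53, 0.90 at efl-1 and 1.02 at dpl-1. Its median was 0.66 (SD 0.36 over 6 genes), and over the 2378 optimal-set peaks matched in both lists it was also 0.66 (SD 0.69). The order of the 3 ranges was the same in both lists by rank, although the 3 strongest changed places among themselves, and so did efl-1 and lin-35. Among the 2409 strongest entries of each replicate list, 5 members had a promoter summit in both, against 8.39% of all genes.

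**Figure D4:**
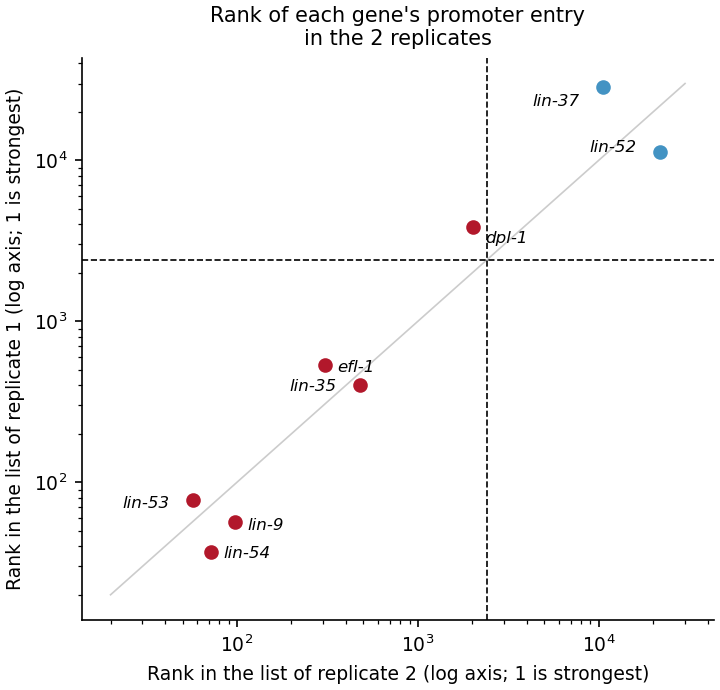
Rank of each gene's promoter entry in the list of replicate 1 (y axis, log) against that in replicate 2 (x axis, log), where 1 is the strongest; red is the optimal set and blue below it. Dashed lines mark rank 2409, the size of the optimal set, and only dpl-1 of the red points lies beyond it in a replicate.

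All 6 summits of the optimal set lay upstream of the start, where the window reaches farther. The 6 distances ran from -361 to -165 with a median of -212, against quartiles of -396 and -136 over all genes with an optimal-set promoter summit. With both quartiles upstream, an upstream summit was common to most of those genes. A promoter summit shared with another gene was found for 4 of the 6, against 57.7% of all genes with an optimal-set summit. With each summit given only to its nearest start, 4 members kept one, against 8.28% of genes; lin-54 lost its summit to rpl-12 and lin-53 to nra-2.

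The letters in these windows were compared with those in all nuclear optimal-set windows of the same length, 150 bp on either side of the summit. An E2F-type core was present at lin-9, lin-53, lin-54 and efl-1, 4 of the 8 windows, against 20.3% of 2389 optimal-set windows. Within 50 bp of the summit it was held by 0 of the 8, against 11.4% of optimal-set windows. Its nearest match lay 55 bp away at lin-54, 60 at efl-1, 101 at lin-53 and 105 at lin-9. The lin-54 match nearest the summit falls in the rpl-12 exon bases left out above, and the one printed lies 76 bp away. A CHR was present in 7 of the 8, all but lin-35, against 64.5%, and GAGAGA in 4 of the 8 against 38.5%. The windows at lin-37 and lin-52 lie at entries below the optimal set, unlike those behind the percentages. Among the 6 members of the optimal set, 4 held the E2F-type core, 5 a CHR and 3 GAGAGA. E2F-type cores and CHR letters do not overlap each other in the sequences shown above. In the 300 bases from 250 before to 50 after the start, the E2F-type core was held by 3 members, and by 1838 of all 19973 nuclear promoters, and CHR by 6 members against 68.9%. The lin-9 window had 46.8% G and C, against a median of 36.9% over optimal-set windows, and the other 7 ranged from 30.6% at lin-37 to 39.5% at lin-54. A match to these letters is not a measured binding site.

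Genes that work with or against the complex were described by lists. Of these, 21 of 61 (34.4%) had an optimal-set promoter summit, against 11.7% of all protein-coding genes. With each summit given only to its nearest start, 15 had one, against 8.28% of all genes. The median promoter signal of the related genes was 44.1 over the 44 with a pooled-list entry, against 27.2 over all genes with one. Of class B synMuv genes outside DRM, 5 of 12 had an optimal-set summit. The highest signals were at lin-36 (91.6), a THAP domain protein gene, and hda-1 (69.4), a histone deacetylase gene. Class A had 0 of 4, and the other E2F genes had 0 of 2. Lists this short could give 0 at the 11.7% share of all genes, so no contrast with class B is drawn. Class C, the Tip60-like group, had 2 of 4, epc-1 (122) and mys-1 (73.9), a MYST acetyltransferase gene. Of the synMuv suppressors, 1 of 5 had a summit, mrg-1 (171), a chromodomain protein gene.

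LIN-53 also serves in other chromatin complexes, among them those of NuRD, CAF-1 and NURF type. Of 10 genes listed for other LIN-53 complexes, 5 had a summit. The list was led by chaf-2 (163), a CAF-1 subunit gene, and hat-1 (148), a histone acetyltransferase gene. Of these 10 genes, let-418, hda-1 and mep-1 are also in the class B list and isw-1 in the suppressor list. Replication genes, a classical target group of E2F, had 6 of 12, with pcn-1 at 176 and cdc-6 at 167. Regulators of the G1 to S step had 3 of 10, with lin-23 (109), an F-box gene, and cye-1 (63.7), the cyclin E gene. P granule genes, which synMuv B mutants express in the soma, had 1 of 6, glh-2 (57.9), a Vasa-like helicase gene. Of the related genes named, hda-1, epc-1, mrg-1, chaf-2, cdc-6, cye-1 and glh-2 shared their summit with another gene. The summits of hda-1, lin-23 and cye-1 lay far from the start, at -962, -891 and -605. The 3 strongest DRM genes had higher promoter signals than each of these 61 genes. These 3 were picked by that same signal, and 0.37% of all protein-coding genes reached the signal of lin-9, so no contrast is drawn.

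**Figure D5:**
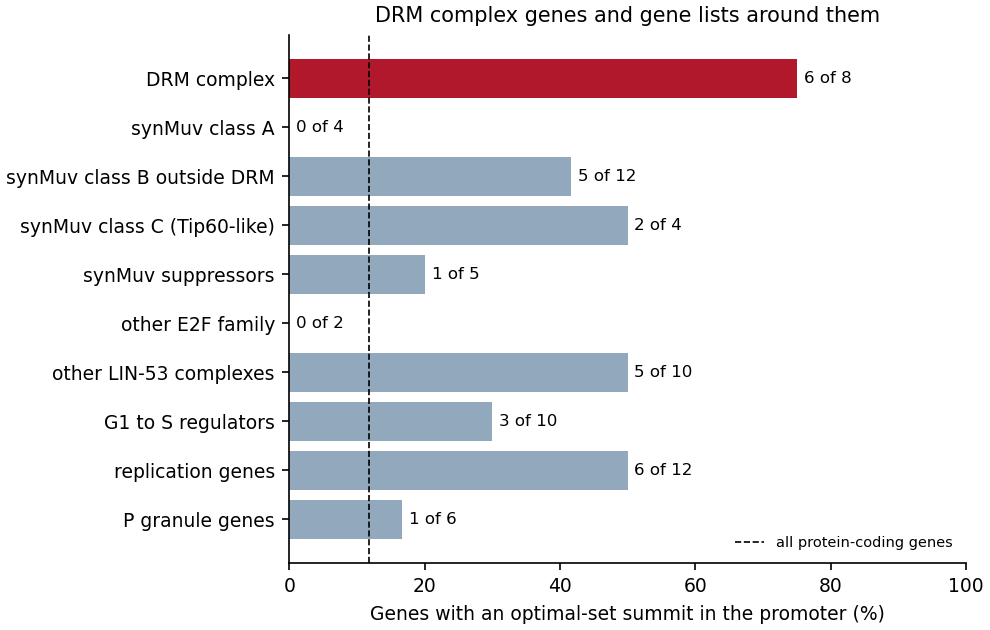
Percentage of genes with an optimal-set summit in the promoter window (x axis) for the DRM complex genes (top, red) and 9 lists of related genes, with counts beside the bars; some genes are in more than 1 list. The dashed line is the 11.7% of all protein-coding genes, and the DRM genes stand at 6 of 8.

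Likeness was measured to the 6 members of the optimal set only, without lin-37 and lin-52. The genes most like them were those whose optimal-set promoter entry had log2 signals nearest to the medians of these 6 in the 2 replicate libraries, 66.5 in replicate 1 and 103 in replicate 2. They were famh-136, hsp-1, an Hsc70 chaperone gene, and F41H10.4. Their signals were 66.3 and 101 at famh-136, 65.6 and 100.3 at hsp-1, and 68.1 and 101 at F41H10.4, at log2 distances of 0.02, 0.04 and 0.04. The medians fall in a gap between members. In replicate 1 the nearest members were lin-53 at 84.9 and lin-35 at 48.1, and in replicate 2 lin-9 at 125 and efl-1 at 80.4. These 3 genes are therefore near the middle of the 6 members but not close to any single one. With 2 libraries, this likeness describes signal height alone.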

How the data were processed

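Peak lists of ChIP-seq in 2 biological replicates of 1 group were used on ce11, whose coordinates fit within the 7 chromosomes of WBcel235. Per the files' accompanying notes, which the authors deposited, the pooled list came from the alignments of both replicates and a control, and the optimal set from an IDR step on the pooled and replicate lists. For alignment and peak calling, tool names and settings were not given in the sources used here. Signal values were taken as deposited, and their unit is that of the authors' caller. The ce10 lists were not used.

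From the lists were computed ranks by signal, the summits in each promoter window (1000 bp upstream to 200 bp downstream of Ensembl release 115 gene starts), the entry of each replicate list with the largest overlap of the pooled entry (at least 1 bp), and motif matches on both strands. A summit counted for every gene whose window held it. The work used Python 3.11.15, pandas 2.3.3 and numpy 2.4.6. The window step was tested on simulated data, where it found 200 of 200 planted summits over 19973 genes. No statistical test was made, because the members and the related lists were chosen with earlier results of these data known. Reported summits sat at the middle of the peak, within 1 bp, in 88.1% of the optimal set, so distances are approximate. Genes named are the 8 members, genes that share their summits and at most 2 per related list by signal. Also named are the 3 genes nearest to the median signals of the 6 members of the optimal set. Genes that adjoin or overlap a member were named after the values were seen. Nothing in the labels says more of the replicates than that they are biological replicates. Alternatives were other windows, starts, peak sets, overlaps and each replicate alone.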

Additional observations from a re-analysis of the deposited data

How the results depend on the processing

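The count of 6 members with an optimal-set promoter summit did not change with promoters of 500 bp upstream to 100 bp downstream, with 2000 bp upstream, or with every transcript start, and it was 4 with the nearest start only. It was 5 in the 1204 peaks of highest signal, where dpl-1 was lost, and 5 to 6 with a replicate left out, dpl-1 being lost without replicate 2. Left-out replicates gave a share of all genes of 10.9% to 11.8% and 18 to 21 related genes. Related genes numbered 16 with promoters of 500 bp upstream to 100 bp downstream and 15 with the nearest start only. In those 1204 peaks the share of all protein-coding genes fell to 7.11% and related genes to 13. Within 50 bp of the summit, member windows with a motif numbered 0 of 8 for the E2F-type core, 3 for CHR and 1 for GAGAGA. Over all optimal-set windows the shares were 11.4%, 26.2% and 21.7%. The member windows with CHR or GAGAGA there were all at optimal-set members, and the shorter window holds fewer positions. The pooled-list count stayed at 8 except with the nearest start only, where it was 6. The strongest signal upstream of lin-37 was 32.1 and of lin-52 33.2 with 2000 bp. Of 32 signals of single members under an alternative, 14 stayed in place and 18 moved, that is, by more than the SD of the 2 replicate signals. All signals from a replicate list alone moved. These lists run on a lower signal scale than the pooled list, so those moves say little of stability. With other windows only lin-37 and lin-52 moved, at 2000 bp upstream. A replicate list alone gave a lower signal than the pooled list at every member except lin-52, which had 21.7 without replicate 1. That exception turns on the window's edge, since the overlapping pooled entry, with 27.5, had its summit at -1006. The replicate difference over the members was 0.66 under both other ways of matching. All other alternatives for the counts and shares stayed within 1.5 times. No paired analysis was possible because there is 1 group. Depth is unknown and there is no untagged sample, which limits how far a weak entry can be read, and 1 group of 2 replicates gives no test of a difference between members.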
